A study of Mus musculus with 13 samples.

Results

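The 10 genes described here encode enzymes that make prostaglandins and leukotrienes from arachidonic acid, and a pair of receptors for prostaglandin E2: *Pla2g4a*, *Ptgs1*, *Ptgs2*, *Ptges*, *Ptges2*, *Ptger2*, *Ptger4*, *Alox5*, *Alox5ap* and *Lta4h*. They were chosen by symbol from a table of read counts per RefSeq transcript, and where a symbol had several transcripts the one with the most counts stood for it. They are 10 of 24562 genes in the table, and all 10 were among the 11942 genes left by the filter on low counts. The study asked how loss of *Acly*, ATP citrate lyase, which makes cytosolic acetyl-CoA, alters the response of macrophages to lipopolysaccharide (LPS), a component of the bacterial outer membrane.
RNA-seq was measured in bone marrow-derived macrophages (BMDMs), which were grown from bone marrow cells of female mice in medium conditioned by L929 fibroblasts. Control cells (labelled WT) carried floxed *Acly* alleles (*Acly* fl/fl, C57Bl/6J) without Cre. AclyM-KO cells (labelled KO) carried the same floxed alleles and Cre expressed from *Lyz2*, which is active in myeloid cells. LPS at 100 ng/mL was given for 3 h (3 control and 3 AclyM-KO libraries) or 24 h (4 control and 3 AclyM-KO libraries). All libraries analysed here received LPS, so that 24 h was compared with 3 h and not with unstimulated cells. The labels number the replicates but do not tie them to separate mice or cultures, so p-values measure the spread among these samples, which may be technical.
Total counts were between 21274102 and 59577343 in 12 libraries. Control 24 h replicate 1 held only 34467 counts, so that 1 count stood for 22.4 CPM (counts scaled by library size) there, and it was left out of the fit. Values are therefore from 12 libraries, 3 in each of 4 groups, and a fit of all 13 is given where it changes whether a gene named here counts as changed. *Acly* itself was at 106 ± 1.2 CPM in control and 41.8 ± 4.25 in AclyM-KO cells at 3 h, and at 110 ± 2.78 and 29.9 ± 0.758 at 24 h (SD, n = 3 each). Reads from the exons that remain in the AclyM-KO cells also count toward *Acly*. The 8 macrophage markers were all detected and summed to 4460 to 10200 CPM in each library. Their sum was 10000 to 10200 CPM in control and 7150 to 8010 CPM in AclyM-KO cells at 3 h. *Lyz2*, the gene that drives Cre, is 1 of the 8. Without *Lyz2* the other 7 summed to 4760 to 4940 and 4840 to 5070 CPM at 3 h, and to 3580 to 3740 and 3510 to 3700 CPM at 24 h.

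Phospholipases release arachidonic acid from membrane lipids. Cyclooxygenases turn it into prostaglandin H2, from which terminal synthases make prostaglandin E2 and other prostanoids, and these act on receptors of the secreting cell and its neighbours. 5-lipoxygenase and its activating protein turn the same arachidonic acid into leukotriene A4, which leukotriene A4 hydrolase converts into leukotriene B4, an attractant of neutrophils. In macrophages, LPS is known for inducing the inducible cyclooxygenase and the inducible prostaglandin E synthase.

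The promoters of 3 members are shown, because *Ptgs2* was the member that changed with genotype, *Ptges* rose most with time, and *Ptger4* was the member whose genotype effect differed between the times. Each sequence is the 250 bases before the start of the RefSeq gene in GRCm38.p6, on the gene's own strand. It is chr1:150099781-150100030 on the plus strand for *Ptgs2*, chr2:30903298-30903547 on the minus strand for *Ptges* and chr15:5244188-5244437 on the minus strand for *Ptger4*. The spans of the genes given below are from GENCODE. For *Ptges* that span runs to 30929863 on the minus strand, so its window lies inside the span and not before it. Capitals mark matches to the motifs searched on both strands.
Ptgs2: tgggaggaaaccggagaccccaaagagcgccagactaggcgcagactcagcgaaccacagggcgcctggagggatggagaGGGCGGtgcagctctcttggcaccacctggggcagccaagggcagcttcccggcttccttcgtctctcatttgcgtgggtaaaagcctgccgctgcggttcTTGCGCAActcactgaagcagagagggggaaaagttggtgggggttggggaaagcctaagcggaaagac
Ptges: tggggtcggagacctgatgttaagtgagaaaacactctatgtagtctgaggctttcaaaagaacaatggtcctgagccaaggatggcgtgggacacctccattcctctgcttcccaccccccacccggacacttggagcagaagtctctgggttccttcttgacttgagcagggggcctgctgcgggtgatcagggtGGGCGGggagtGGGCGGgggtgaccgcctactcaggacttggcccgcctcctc
Ptger4: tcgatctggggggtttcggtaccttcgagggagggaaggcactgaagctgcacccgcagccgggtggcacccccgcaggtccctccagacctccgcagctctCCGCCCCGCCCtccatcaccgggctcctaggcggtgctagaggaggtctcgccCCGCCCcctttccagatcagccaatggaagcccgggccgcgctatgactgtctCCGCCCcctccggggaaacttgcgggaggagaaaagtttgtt
The motifs searched were TATAAA, TGACGTCA and TGACG, which is contained in it, CACGTG, the C/EBP core TTGCNNAA, the GC box GGGCGG and the NF-kB consensus. The *Ptgs2* window held the C/EBP core at -69 to -62, counted from the gene's start, and a GC box at -170 to -165. The *Ptges* window held GC boxes at -53 to -48 and at -42 to -37. The *Ptger4* window held 4 GC boxes on the opposite strand, at -148 to -143, -143 to -138, -95 to -90 and -42 to -37, of which the first pair share a base. Of 32851 promoter windows of the same length, 9.56% held the C/EBP core and 32.7% a GC box. CACGTG, in 6.02% of all windows, was found in that of *Ptges2* only, and TATAAA, in 12.4%, in that of *Pla2g4a* only, at an alternative start. The windows of *Ptgs1*, *Ptger2* and *Lta4h* held none of these motifs, and that of *Alox5* held a GC box. TGACGTCA (1.55% of all windows), TGACG (17.8%) and the NF-kB consensus (7.25%) had no match in the members' windows. A match is a description of the letters in these windows and not of binding.

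AclyM-KO macrophages had 1.75 times the *Ptgs2* RNA of control macrophages at 3 h and 1.92 times at 24 h, and no other member changed with genotype at either time. The study's thresholds were used, so a changed gene had an adjusted p under 0.05 in edgeR's quasi-likelihood test and differed by more than 0.75 on the log2 scale. By this rule 1 of the 10 members changed at 3 h, where 2.01% of all genes tested did, and 1 of 10 at 24 h, where 1.38% did. The median log2 fold change of the members was 0.1 at 3 h, against -0.01 over all genes, and 0.02 at 24 h, against 0.01.
*Ptgs2*, on the plus strand of chromosome 1 (GRCm38, 150100031 to 150108227), encodes the inducible cyclooxygenase COX-2. At 3 h its level was 214, 181 and 201 CPM in the control libraries and 371, 326 and 347 CPM in the AclyM-KO libraries. At 24 h it was 157, 186 and 216 CPM in control replicates 2, 3 and 4 and 383, 351 and 345 CPM in the AclyM-KO libraries. Every AclyM-KO library lay above every control at both times. AclyM-KO cells were higher by 0.81 log2 units at 3 h (standard error 0.1, adjusted p = 0.000328) and by 0.94 at 24 h (standard error 0.1, adjusted p = 8.99e-05). The effects at the 2 times differed by 0.14 on the log2 scale (95% interval -0.18 to 0.46, adjusted p = 0.644). Control 24 h replicate 1 held 10 *Ptgs2* counts, or 224 CPM. The adjusted p of *Ptgs2* lay between 6.54e-18 and 0.000292 over 9 alternative fits of a difference from 0 at 3 h and between 1.94e-23 and 0.00855 at 24 h. With glmTreat, which tests whether a change exceeds the fold threshold and stands outside the ranges of adjusted p given here, it was 1 at both times, and *Ptgs2* was not called. Without control 3 h replicate 2 the 3 h value was 0.75 (0.747 before rounding, adjusted p = 0.000695), just inside the fold threshold, and *Ptgs2* was then not counted as changed.
In a bulk culture a larger share of cells with a transcript and more of it per cell cannot be told apart, for this and every other value here.

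**Figure D1:**
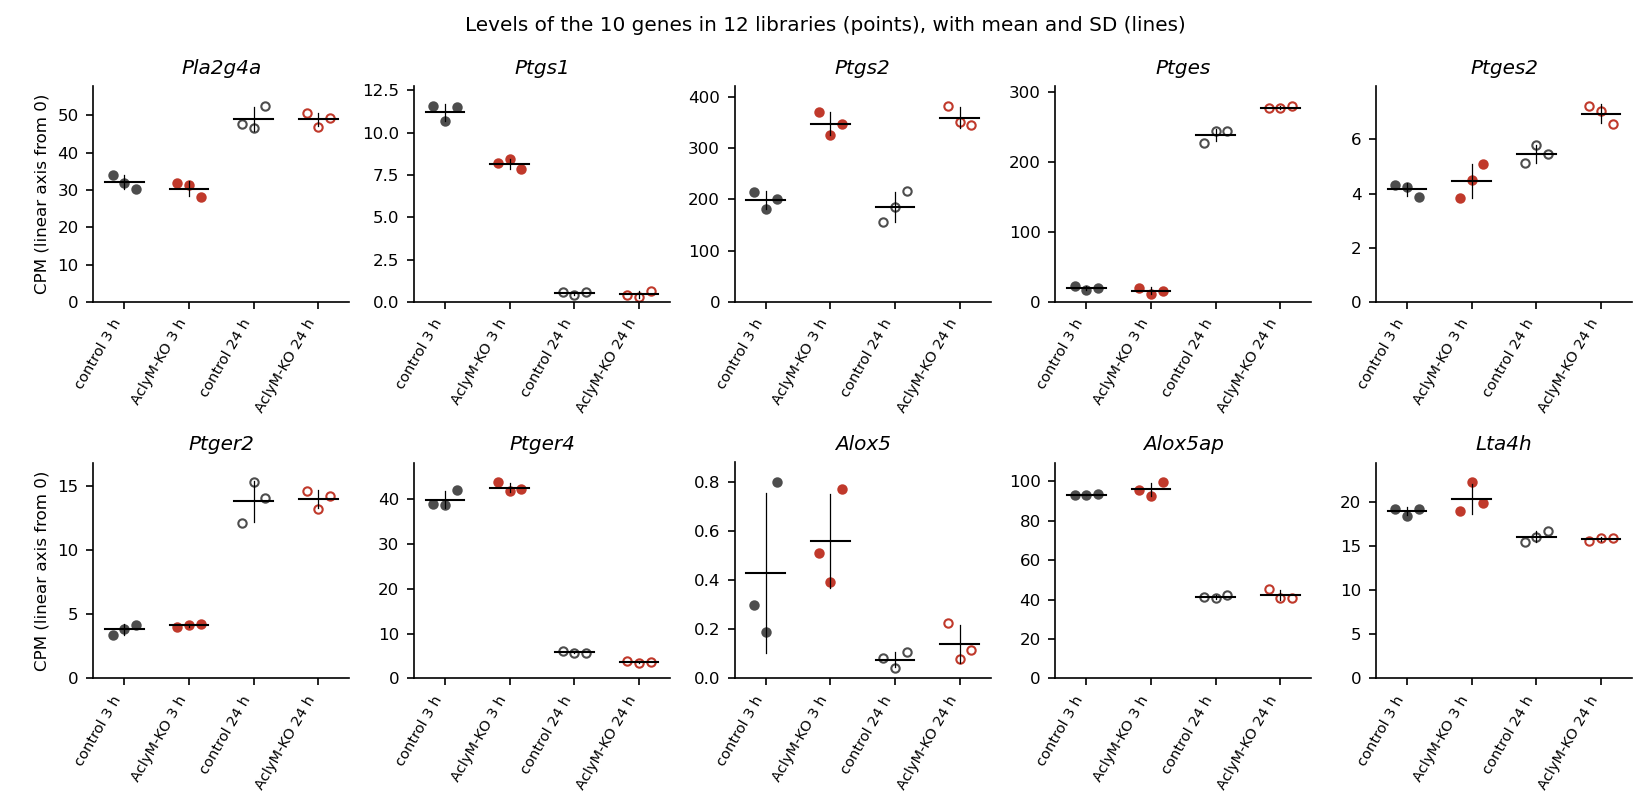
Level of each member in CPM (vertical axis, linear from 0) in the 12 libraries, with control libraries in grey and AclyM-KO libraries in red, filled at 3 h and open at 24 h, and with lines at the group mean and SD (n = 3). *Ptgs2* lay higher in AclyM-KO cells at both times, at 326 to 383 CPM against 157 to 216 CPM, while *Ptgs1*, *Ptges*, *Ptger2*, *Ptger4* and *Alox5ap* differed mainly between 3 h and 24 h.

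*Ptgs1*, on the plus strand of chromosome 2 (36230426 to 36252272), encodes the constitutive cyclooxygenase COX-1. At 3 h it was at 11.6, 10.7 and 11.5 CPM in control and 8.2, 8.44 and 7.84 CPM in AclyM-KO libraries. The AclyM-KO libraries were all lower, by 0.46 log2 units or 1.38-fold (standard error 0.12, adjusted p = 0.0103), which is inside the fold threshold. This adjusted p was under 0.05 in 7 of 8 alternative fits, with a range of 0.00865 to 1, and in 4 of 6 fits that left out a library, where the highest was 0.0517. At 24 h *Ptgs1* was at 0.574, 0.426 and 0.58 CPM in control and 0.413, 0.281 and 0.652 CPM in AclyM-KO libraries, and the groups overlapped. These values rest on 7 to 38 counts a library, and the log2 fold change was -0.27 (95% interval -0.89 to 0.35, adjusted p = 0.618).
By adjusted p alone, 2 of 10 members differed at 3 h, *Ptgs2* and *Ptgs1*, against 15.4% of all genes, and 3 of 10 at 24 h, *Ptgs2*, *Ptges2* and *Ptger4*, against 13.9%. The AclyM-KO and control libraries did not overlap for 2 of 10 members at 3 h, where 30.1% of all genes tested had no overlap, and for 4 of 10 at 24 h, where 33.0% had none. These shares are near those over all genes, which limits what the members' counts show.

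**Figure D2:**
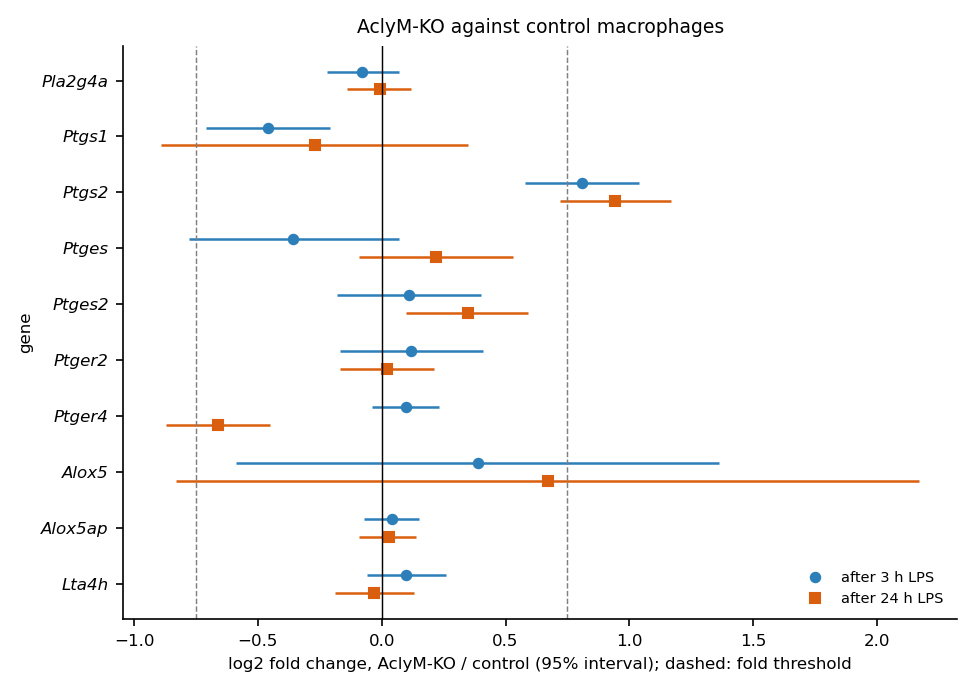
Log2 fold change of AclyM-KO against control cells (horizontal axis) with its 95% interval for each member after 3 h (blue circles) and 24 h LPS (orange squares), with dashed lines at the fold threshold of 0.75 in either direction. *Ptgs2* lay beyond the threshold at both times (0.81 and 0.94), and *Ptger4* was at 0.1 at 3 h and at -0.66 at 24 h.

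The phospholipase upstream of both branches did not pass the test between genotypes. *Pla2g4a* encodes cytosolic phospholipase A2, which cleaves arachidonic acid from phospholipids, and lies 138740 bases from *Ptgs2* on chromosome 1 (149829618 to 149961290, minus strand), with no protein-coding gene between the 2. It was at 34.1, 32 and 30.2 CPM in control and 31.8, 31.3 and 28.1 CPM in AclyM-KO libraries at 3 h. At 24 h it was at 47.8, 46.7 and 52.6 CPM in control and 50.5, 47 and 49.2 CPM in AclyM-KO libraries. The genotypes overlapped at both times, with log2 fold changes of -0.08 (95% interval -0.22 to 0.07) and -0.00843 (-0.14 to 0.12). Both intervals lay inside the fold threshold, unlike those of its neighbour *Ptgs2*.

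The terminal synthases of prostaglandin E2 were *Ptges*, the inducible microsomal synthase on chromosome 2 (30889471 to 30929863, minus strand), and *Ptges2*, a second membrane-associated synthase on the same chromosome (32395896 to 32405772, plus strand). *Ptges* was at 23.1, 17.7 and 20.6 CPM in control and 20.6, 11.2 and 16.4 CPM in AclyM-KO libraries at 3 h. At 24 h it was at 228, 244 and 244 CPM in control and 277, 277 and 281 CPM in AclyM-KO libraries. The genotypes overlapped at 3 h and were apart at 24 h, with AclyM-KO higher. The log2 fold change was -0.36 at 3 h (95% interval -0.78 to 0.07, adjusted p = 0.261) and 0.22 at 24 h (-0.09 to 0.53, adjusted p = 0.361). The fit pools the spread of all groups, and with only the 24 h groups in the fit the 24 h value was 0.21 with an adjusted p of 0.000644. The other 8 alternatives gave adjusted p-values above 0.05.
*Ptges2* was at 5.12, 5.8 and 5.47 CPM in control and 7.25, 7.04 and 6.56 CPM in AclyM-KO libraries at 24 h. The AclyM-KO libraries were all higher, by 0.35 on the log2 scale (95% interval 0.1 to 0.59, adjusted p = 0.0482), inside the fold threshold. This p was under 0.05 in 4 of 9 alternative fits (range 0.0294 to 1) and in 0 of the 6 that left out a library (0.064 to 0.16). At 3 h *Ptges2* was at 3.89 to 4.32 CPM in control and 3.84 to 5.1 CPM in AclyM-KO libraries, which overlapped.

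Of the receptors, *Ptger4* was the member whose genotype effect differed between the times. *Ptger4*, on the minus strand of chromosome 15 (5206661 to 5244187), and *Ptger2*, on the plus strand of chromosome 14 (44988195 to 45003820), encode EP4 and EP2, receptors of prostaglandin E2 that raise cyclic AMP. At 3 h *Ptger4* was at 38.9, 38.6 and 42.1 CPM in control and 43.8, 41.8 and 42.3 CPM in AclyM-KO libraries. At 24 h it was at 6.03, 5.76 and 5.73 CPM in control replicates 2, 3 and 4 and 3.9, 3.54 and 3.61 CPM in AclyM-KO libraries. The genotypes overlapped at 3 h, and at 24 h every AclyM-KO library was lower than every control.
Between genotypes *Ptger4* differed by 0.1 log2 units at 3 h (standard error 0.07, adjusted p = 0.377) and -0.66 at 24 h (standard error 0.1, adjusted p = 3.35e-05), which is 1.58-fold lower and inside the fold threshold. The difference between the 2 effects was -0.75 (95% interval -1 to -0.5, adjusted p = 0.000113). It was the only interaction of genotype and time among the 10 members, where 9.59% of all genes tested had one. The count of members with an interaction is thus near the share over all genes. The interaction was found in all 12 fits that left out a library. With all 13 libraries it was -0.76 in edgeR (adjusted p = 0.00101) and, in DESeq2, -1.15 with an adjusted p of 1. Control 24 h replicate 1 held 3 *Ptger4* counts, which stand for 67.2 CPM. *Ptger4* overlaps the protein-coding gene *Ttc33* on the opposite strand, and the strand setting of the counting is not given in the sources used here.
*Ptger2* did not pass the test between genotypes. It was at 3.38, 3.88 and 4.19 CPM in control and 4, 4.2 and 4.23 CPM in AclyM-KO libraries at 3 h, and at 12.1, 15.3 and 14.1 CPM and 14.6, 13.2 and 14.2 CPM at 24 h. The log2 fold changes were 0.12 (95% interval -0.17 to 0.41) and 0.02 (-0.17 to 0.21).

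The 3 members of the leukotriene branch did not pass the test between genotypes at either time. *Alox5ap*, on chromosome 5 (149264767 to 149288153, plus strand), encodes the 5-lipoxygenase activating protein, which presents arachidonic acid to the enzyme. It was at 93.2, 92.9 and 93.4 CPM in control and 95.4, 92.8 and 99.6 CPM in AclyM-KO libraries at 3 h, and at 41.2, 40.7 and 42.6 CPM and 45.3, 40.8 and 40.9 CPM at 24 h. Its log2 fold changes were 0.04 (95% interval -0.07 to 0.15) and 0.03 (-0.09 to 0.14). *Lta4h*, the hydrolase that makes leukotriene B4, on chromosome 10 (93453411 to 93484875, plus strand), had log2 fold changes of 0.1 (-0.06 to 0.26) and -0.03 (-0.19 to 0.13). These intervals lay inside the fold threshold.
*Alox5*, 5-lipoxygenase itself, on chromosome 6 (116410077 to 116461178, minus strand), was close to the limit of detection. It had 6, 4 and 16 counts in control and 10, 9 and 16 counts in AclyM-KO libraries at 3 h, and 2, 1 and 7 and 6, 2 and 3 counts at 24 h. Libraries of the 2 genotypes overlapped. The 95% intervals of its log2 fold change, -0.59 to 1.36 at 3 h and -0.83 to 2.17 at 24 h, reached beyond the fold threshold, so that a difference of that size was not detectable at this depth.

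Between 3 h and 24 h of LPS, 6 of the 10 members changed in control cells and the same 6 in AclyM-KO cells. *Ptges* and *Ptger2* rose, and *Ptgs1*, *Ptger4*, *Alox5ap* and *Alox5* fell. Over all genes tested, 40.4% changed in control and 42.0% in AclyM-KO cells. In control cells the 2 members that rose stand beside 20.9% of all genes, and the 4 that fell beside 19.5%. By adjusted p alone 9 of 10 members differed in each genotype (74.9% and 75.7% of all genes), and for 9 of 10 the times did not overlap (77.5% and 76.8%). The median log2 fold change in each genotype was -0.16 over the members and 0.04 over all genes. Both times were compared in the same fit, and the control and AclyM-KO comparisons have no library in common.
*Ptges* rose 11.7-fold in control cells, from 20.5 ± 2.68 to 239 ± 8.96 CPM, and 17.5-fold in AclyM-KO cells, from 16.1 ± 4.73 to 278 ± 2.17 CPM (SD, n = 3 each). The log2 fold changes were 3.55 (standard error 0.17, adjusted p = 2.45e-08) and 4.13 (standard error 0.17, adjusted p = 8.92e-09). Their difference, 0.58 (95% interval 0.05 to 1.11), had an adjusted p of 0.174. It passed the test without AclyM-KO 3 h replicate 1 (0.78, adjusted p = 0.00931) or replicate 2 (0.35, adjusted p = 0.0329). The other synthase, *Ptges2*, was higher at 24 h by 0.39 in control (adjusted p = 0.00867) and 0.63 in AclyM-KO cells (adjusted p = 7.02e-05), both inside the fold threshold. In DESeq2 with all 13 libraries the AclyM-KO value was 0.851 (adjusted p = 0.0264) and was counted as changed.
*Ptgs2*, the member that did not differ by adjusted p, overlapped between the times. In control cells its mean was 199 ± 16.8 CPM at 3 h and 186 ± 29.2 CPM at 24 h, with a log2 fold change of -0.09 (95% interval -0.32 to 0.14, adjusted p = 0.445). In AclyM-KO cells it was 348 ± 22.5 and 359 ± 20.4 CPM, with a log2 fold change of 0.05 (-0.18 to 0.27, adjusted p = 0.691). Over the alternatives the adjusted p of the control value was 0.016 to 0.613, under 0.05 in 1 of 9. *Ptgs1* fell 20.5-fold in control cells, from 11.2 ± 0.493 to 0.527 ± 0.0871 CPM, and 17.9-fold in AclyM-KO cells, from 8.16 ± 0.303 to 0.449 ± 0.188 CPM. Its log2 fold changes were -4.35 (adjusted p = 3.62e-20) and -4.16 (adjusted p = 4.31e-18).

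**Figure D3:**
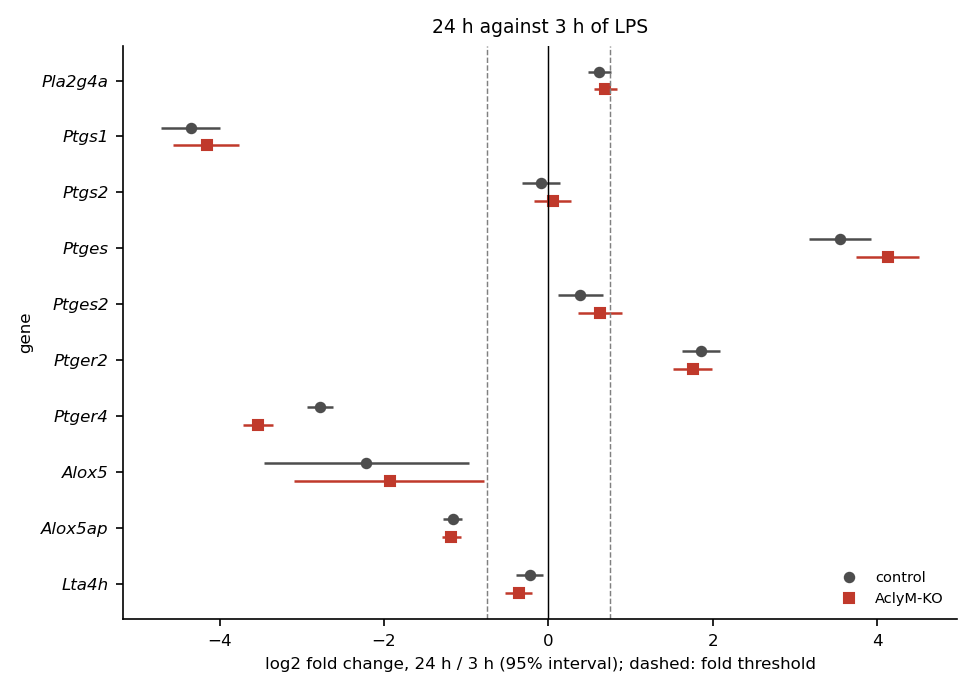
Log2 fold change of 24 h against 3 h LPS (horizontal axis) with its 95% interval for each member in control (grey circles) and AclyM-KO cells (red squares), with dashed lines at the fold threshold of 0.75 in either direction. *Ptges* and *Ptger2* lay to the right of the thresholds and *Ptgs1*, *Ptger4*, *Alox5* and *Alox5ap* to the left in both genotypes, with *Ptger4* at -2.78 in control and -3.53 in AclyM-KO cells.

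The receptors moved in opposite directions. *Ptger2* rose 3.62-fold in control cells, from 3.82 ± 0.41 to 13.8 ± 1.62 CPM, and 3.38-fold in AclyM-KO cells, from 4.14 ± 0.127 to 14 ± 0.701 CPM (adjusted p = 3.53e-15 and 1.28e-14). *Ptger4* fell 6.85-fold in control cells, from 39.9 ± 1.95 to 5.84 ± 0.165 CPM, and 11.5-fold in AclyM-KO cells, from 42.6 ± 1.04 to 3.68 ± 0.194 CPM (adjusted p = 5.28e-24 and 1.83e-25). In both genotypes all 24 h libraries lay above all 3 h libraries for *Ptger2* and below them for *Ptger4*. *Ptger2* also overlaps antisense transcripts, *Gm17173* and *Gm49364*, which are not in the count table.
*Pla2g4a* was higher at 24 h in both genotypes, with no overlap, but by less than the threshold. The difference was 0.62 log2 units (standard error 0.07, adjusted p = 1.54e-09) in control and 0.69 (standard error 0.07, adjusted p = 2.04e-10) in AclyM-KO cells. In DESeq2 with all 13 libraries it was counted as changed, at 0.82 and 0.91.
In the leukotriene branch, *Alox5ap* fell 2.24-fold in control cells, from 93.2 ± 0.261 to 41.5 ± 0.968 CPM, and 2.26-fold in AclyM-KO cells, from 95.9 ± 3.43 to 42.3 ± 2.57 CPM (adjusted p = 5.34e-18 and 4.77e-18). *Lta4h* was lower by 0.23 in control (adjusted p = 0.00934) and by 0.36 in AclyM-KO cells (adjusted p = 0.00013) on the log2 scale, inside the threshold, at 19 ± 0.455 and 16.1 ± 0.644 CPM in control cells. *Alox5* fell by 2.22 log2 units in control cells (standard error 0.61, adjusted p = 0.00165) and by 1.93 in AclyM-KO cells (standard error 0.56, adjusted p = 0.00281), on the few counts given above. The control call rested on 1 library: without control 3 h replicate 3, which held 16 of the 26 counts of its group, the value was -1.41 (adjusted p = 0.0809). In DESeq2 with all 13 libraries *Alox5* passed in neither genotype, at -1.44 (adjusted p = 0.327) and -1.77 (adjusted p = 0.229). The 10 neutrophil markers, of which *Ly6g* and *Retnlg* were at 0 in all 12 libraries, summed to 12.7 to 14.3 CPM in control and 11.9 to 15.3 CPM in AclyM-KO cells at 3 h, and to 3.44 to 4.7 and 3.74 to 4.47 CPM at 24 h. They were thus also lower at 24 h, and their part in the fall of *Alox5*, which neutrophils also express, was not tested.

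Divided by exon length, to RPKM (reads per kilobase of exon, on the CPM scale), the members could be ranked within a group. In control cells at 3 h, *Alox5ap* was highest (74.5 ± 0.209 RPKM), followed by *Ptgs2* (44.7 ± 3.77), *Ptger4* (12 ± 0.59), *Pla2g4a* (11.2 ± 0.673), *Lta4h* (9.36 ± 0.224), *Ptges* (5.61 ± 0.734), *Ptgs1* (3.92 ± 0.172), *Ptger2* (1.04 ± 0.111), *Ptges2* (0.835 ± 0.0467) and *Alox5* (0.152 ± 0.115). The levels of *Ptger4* and *Pla2g4a* differed by less than the sum of their SDs. In AclyM-KO cells at 3 h, *Ptgs2* (78.1 ± 5.05 RPKM) and *Alox5ap* (76.7 ± 2.75) were level within their spread.
At 24 h *Ptges* was the highest member in control cells (65.5 ± 2.46 RPKM), above *Ptgs2* (41.9 ± 6.55) and *Alox5ap* (33.2 ± 0.774). In AclyM-KO cells *Ptgs2* (80.7 ± 4.59) and *Ptges* (76.3 ± 0.595) were level within their spread and lay above *Alox5ap* (33.9 ± 2.06). The per-length level of *Ptges2* may be too low, because its GENCODE transcript of 4978 bases runs past the end of the RefSeq gene.
The balance of the paired genes differed most between the times. The per-length ratio of *Ptgs2* to *Ptgs1* was 11.9, 10.9 and 11.3 in control and 29.1, 24.9 and 28.5 in AclyM-KO libraries at 3 h. At 24 h it was 177, 281 and 239 in control and 597, 802 and 340 in AclyM-KO libraries, where *Ptgs1* had few counts. The inducible cyclooxygenase outweighed the constitutive one in every library, and the ratio was higher in every AclyM-KO library than in every control of the same time.
The ratio of *Ptger2* to *Ptger4* was 0.078 to 0.0904 in control and 0.082 to 0.0903 in AclyM-KO libraries at 3 h. At 24 h it was 1.8, 2.39 and 2.21 in control and 3.36, 3.36 and 3.53 in AclyM-KO libraries. *Ptger4* was thus the more abundant receptor transcript at 3 h and *Ptger2* at 24 h in all libraries. Ratios of *Ptges* to *Ptges2* were 6.74 in control and 5.03 in AclyM-KO cells at 3 h and 59.7 and 54.8 at 24 h, as group means.

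**Figure D4:**
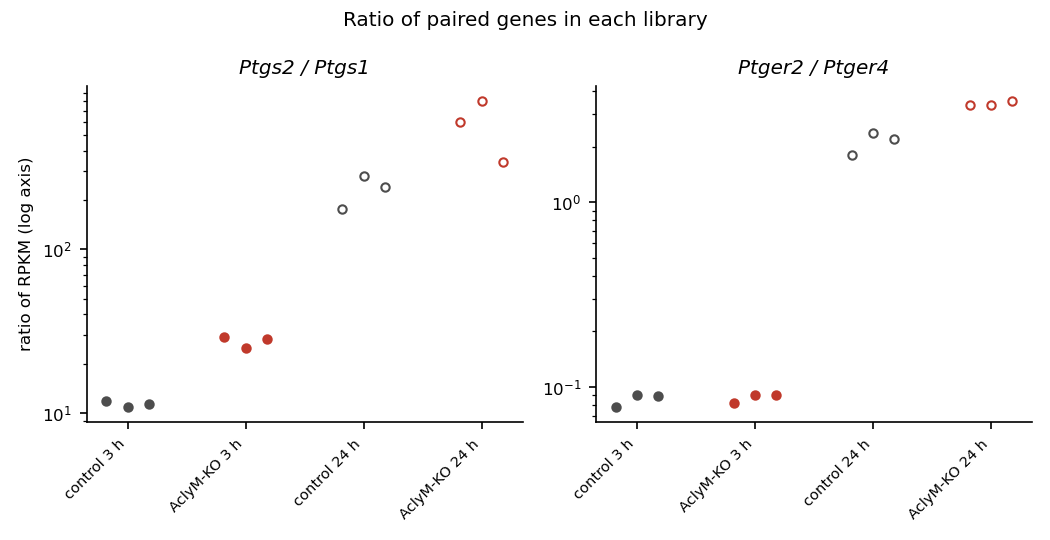
Ratio of RPKM (vertical axis, log scale) of *Ptgs2* to *Ptgs1* (left) and of *Ptger2* to *Ptger4* (right) in each of the 12 libraries, with control in grey and AclyM-KO in red, filled at 3 h and open at 24 h. Both ratios rose with time, from 10.9 to 29.1 at 3 h to 177 to 802 at 24 h for the cyclooxygenases and from under 0.1 to over 1 for the receptors.

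Over the 12 libraries, the genes whose log2 CPM followed that of *Ptgs2* most closely, among 6735 genes with a mean log2 CPM of at least 3, were *Tnfrsf26* (Pearson r = 0.917), *Mdm2* (0.912), *Scpep1* (0.909), *Flii* (0.908) and *Cep170b* (0.908). The closest gene was *Pygb* for *Ptgs1* (0.997), *Pcyt1a* for *Ptges2* (0.958), *Sppl2a* for *Pla2g4a* (0.995), *Tuba4a* for *Ptger2* (0.995), *C5ar1* for *Ptger4* (0.999), *Stom* for *Alox5ap* (0.998), *Magt1* for *Lta4h* (0.979) and *9930111J21Rik1* for *Alox5* (0.935). The libraries fall into 4 groups that differ by time and genotype, so these values describe shared group levels. The patterns of the members with large time effects were matched more closely than that of *Ptgs2*.

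A list of 56 other genes of the pathway, written with earlier results of these data known, was read against the members, and 38 of them were tested. By edgeR's adjusted p and the fold together, 0 of the 38 changed with genotype at either time, against 2.01% and 1.38% of all genes. By adjusted p alone 7 were higher and 6 lower in AclyM-KO cells at 3 h, where 8.52% and 6.92% of all genes were, and 2 were higher and 7 lower at 24 h, where 8.31% and 5.59% were. At an unadjusted p under 0.05, 9 were higher and 8 lower at 3 h, and 3 higher and 10 lower at 24 h, and DESeq2 also called 0 changed at both times. The share of all genes at an unadjusted p under 0.05 was not counted. Counts at that cutoff, here and below, thus have no background to be read against. The median log2 fold change of the list was -0.02 at 3 h and -0.03 at 24 h, against -0.01 and 0.01 over all genes.
Among these was *Ptgir*, the receptor of prostacyclin, at 5.77 ± 0.95 CPM in control and 8.12 ± 0.88 CPM in AclyM-KO cells at 3 h, and 48.4 ± 2.3 and 63.8 ± 2.49 CPM at 24 h (SD, n = 3 each). Its AclyM-KO libraries were all higher at both times, with log2 fold changes of 0.49 (adjusted p = 0.00337) and 0.4 (adjusted p = 0.000125), inside the fold threshold. *Cyp4f18*, which oxidizes leukotriene B4, was lower in AclyM-KO cells at 3 h, at 6.88 ± 2.08 against 10.9 ± 0.922 CPM (log2 fold change -0.68, adjusted p = 0.00292), inside the fold threshold. Opposite to *Ptgir*, *Pla2g7* and *Tbxas1*, described below, were lower in all AclyM-KO libraries at both times, inside the fold threshold. *Pla2g7* was at -0.42 (adjusted p = 0.00335) and -0.21 (adjusted p = 0.0412) on the log2 scale. *Tbxas1* was at -0.21 (adjusted p = 0.0257) and -0.24 (adjusted p = 0.0183).
The genotype effect differed between the times for 4 of the 38 genes, against 9.59% of all genes, and these were named after their values were seen. It was lower at 24 h than at 3 h for *Acsl4* (difference -0.42, adjusted p = 0.000285), which couples arachidonic acid to coenzyme A, *Cotl1* (-0.47, adjusted p = 2.76e-05), which binds 5-lipoxygenase, and the lipoxin receptor *Fpr2* (-0.68, adjusted p = 0.00374). It was higher at 24 h for *Hpgds*, the haematopoietic prostaglandin D synthase (0.28, adjusted p = 0.0331). The log2 fold change of *Hpgds* was -0.3 at 3 h (adjusted p = 0.000663) and -0.02 at 24 h (adjusted p = 0.884). In edgeR with all 13 libraries its interaction did not pass (0.28, adjusted p = 0.0717).

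Between 3 h and 24 h, 9 of the 38 list genes rose and 9 fell in control cells, and 9 rose and 11 fell in AclyM-KO cells. Of all 11942 genes tested 20.9% rose and 19.5% fell in control cells, and 42.0% changed in AclyM-KO cells, where 2621 rose and 2390 fell. The list's counts are near these shares, against which the counts of its groups of 3 to 13 genes are also to be read. The list's median log2 fold change was -0.04 in control and -0.1 in AclyM-KO cells, against 0.04 over all genes in both.
Among phospholipases and genes of arachidonate release, 4 of 13 rose and 1 fell in control cells. *Pla2g7*, which hydrolyses platelet-activating factor, rose 6.13-fold in control cells, from 14.8 ± 1.6 to 90.1 ± 9.2 CPM, and 7.11-fold in AclyM-KO cells, from 11 ± 0.373 to 78.2 ± 4.98 CPM. *Pla2g6*, the calcium-independent phospholipase A2, rose 4.08-fold in control and 3.66-fold in AclyM-KO cells.
Among prostanoid synthases 0 of 6 rose and 2 fell in each genotype, in edgeR and in DESeq2, with 1 higher in control and 0 in AclyM-KO cells at an unadjusted p under 0.05. *Tbxas1*, thromboxane A synthase, fell from 75 ± 3.36 to 30.8 ± 0.262 CPM in control cells (2.44-fold) and from 64.8 ± 2.92 to 26.1 ± 2.97 CPM in AclyM-KO cells (2.49-fold). *Hpgds* fell from 113 ± 8.09 to 49 ± 1.07 CPM in control (2.31-fold) and from 92.1 ± 5.08 to 48.4 ± 2.24 CPM in AclyM-KO cells (1.9-fold), where DESeq2 with all 13 libraries gave -0.708, inside the threshold. The rise of *Ptges* stood beside lower levels of the synthases of thromboxane and prostaglandin D. Mast cells also express *Hpgds*, and the 7 markers of mast cells and basophils, of which *Mcpt8* and *Fcer1a* were at 0, summed to 2.38 to 3.09 CPM in control and 4.3 to 5.9 CPM in AclyM-KO cells at 3 h and to 0.809 to 0.943 and 1.11 to 1.39 CPM at 24 h. Their part in these values was not tested.
Among genes of transport and breakdown, *Hpgd*, the dehydrogenase that inactivates prostaglandins, had 43 counts over the 3 control and 42 over the 3 AclyM-KO libraries at 3 h and 0 counts in all 6 libraries at 24 h. Set against a floor of 3 counts a library, it was at least 7.09-fold lower in control and at least 5.86-fold lower in AclyM-KO cells. *Zadh2*, a prostaglandin reductase, rose from 6.24 ± 0.85 to 12.4 ± 1.05 CPM in control cells (2.01-fold). In AclyM-KO cells it was 1.65-fold higher, inside the threshold, and it was counted as changed there without replicate 1 of the 3 h (0.753) or of the 24 h group (0.78) and in DESeq2 with all 13 libraries (0.947).
Of the other prostanoid receptors 3 were tested and 1 rose. *Ptgir* rose 8.4-fold in control and 7.89-fold in AclyM-KO cells.
Among leukotriene and lipoxygenase enzymes 0 of 8 rose, and 5 fell in control and 7 in AclyM-KO cells, with a median log2 fold change of -1.34 and -1.6. DESeq2 also called 0 higher, and at an unadjusted p under 0.05 there were 0 higher. *Cyp4f18* fell 25.4-fold in control cells, to 0.44 ± 0.0627 CPM, and 21.8-fold in AclyM-KO cells, to 0.308 ± 0.0581 CPM. *Mgst3*, a microsomal glutathione transferase with leukotriene C4 synthase activity, fell from 8.39 ± 1.1 to 1.82 ± 0.283 CPM in control (4.63-fold) and from 11.5 ± 2.22 to 1.69 ± 0.574 CPM in AclyM-KO cells (6.75-fold). These genes moved in the same direction as *Alox5* and *Alox5ap*.
Among leukotriene and related receptors, *Fpr2* rose from 8.01 ± 1.09 to 89.6 ± 10.6 CPM in control (11.2-fold) and from 11.2 ± 1.4 to 79 ± 2.42 CPM in AclyM-KO cells (7.03-fold). *Fpr2* overlaps *Fpr3* on the same strand, so their reads may not be told apart. *Cysltr2*, a receptor of cysteinyl leukotrienes, rose 1.89-fold in control and 2.08-fold in AclyM-KO cells. Of the 18 list genes that were not tested, the leukotriene B4 receptor *Ltb4r1* had at most 5 counts and the thromboxane receptor *Tbxa2r* at most 1 count in a library, and *Ptgds*, *Ptgdr*, *Alox8* and *Dpep1* had 0.

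**Figure D5:**
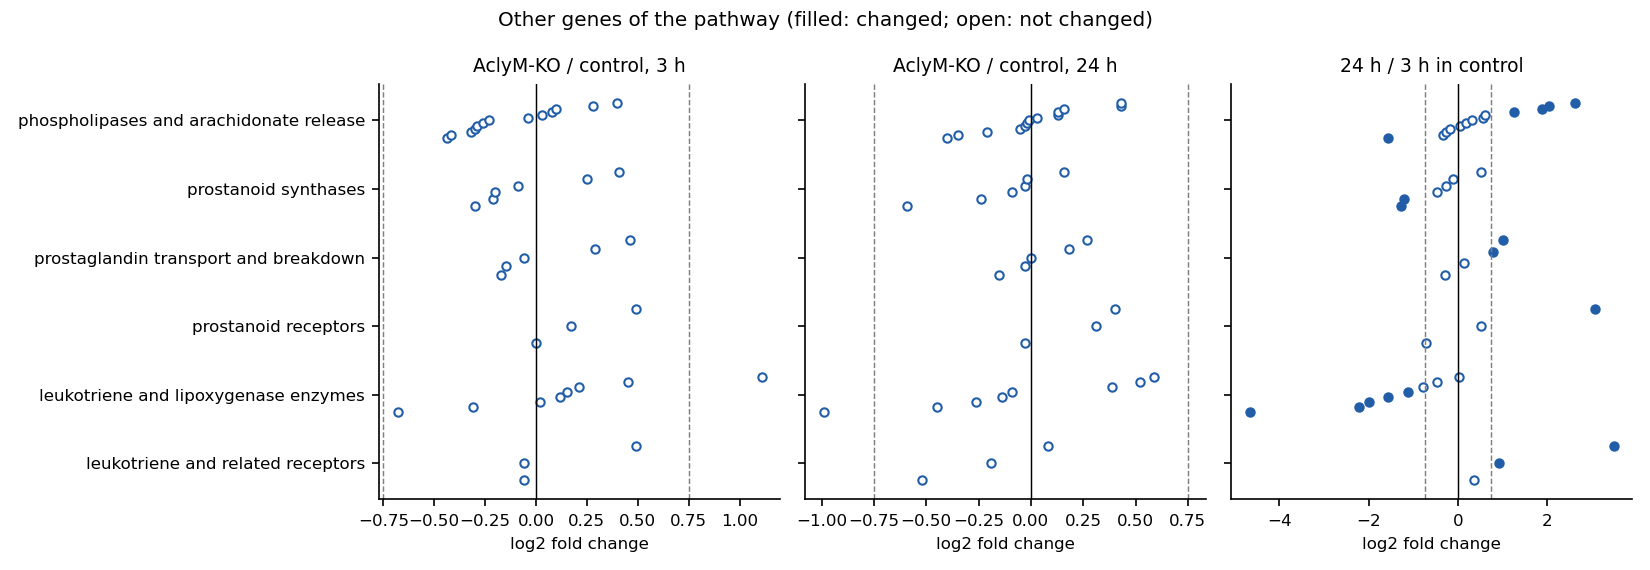
Log2 fold change (horizontal axis) of the other pathway genes that were tested, by group (rows), for AclyM-KO against control cells at 3 h (left) and 24 h (middle) and for 24 h against 3 h in control cells (right), with filled points for changed genes and dashed lines at 0.75 in either direction. No point is filled in the genotype panels, and in the right panel 5 of 8 leukotriene and lipoxygenase enzymes fell and 0 rose; *Hpgd*, with 0 counts at 24 h, is left out there.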

How the data were processed

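RNA-seq libraries of BMDMs were grouped by genotype and time from their labels. Per the study's methods and the submitters' processing notes, the authors made strand-specific mRNA libraries, processed reads with CASAVA 1.8.2, aligned them to mm10 with STAR 2.5.2b and used HOMER to sum the tags of each RefSeq transcript. The deposited values are raw counts in whole numbers, without normalization. How tags were assigned by strand or isoform is not given in the sources used here, so tags of overlapping genes may be shared, and *Ptger4*, *Alox5ap* and *Lta4h* each have a second transcript with identical counts. No column of the table was left unused (0).
Of 35745 transcripts, 35440 matched a symbol in a RefSeq gene table and 35628 after GENCODE (release M21, GRCm38) was added. The 117 others, with 1.129% of counts, stayed in library sizes and test. In R 4.3.3, counts were normalized by TMM and filtered with filterByExpr in edgeR 4.0.16 (limma 3.58.1), and robust quasi-likelihood models of 4 groups were fitted to 12 libraries and tested on simulated data. The Benjamini-Hochberg adjustment covered all transcripts tested. Changed genes had an adjusted p under 0.05 and a log2 fold change beyond 0.75, and an interaction needed the adjusted p only. CPM are scaled by TMM, and RPKM were computed here from GENCODE exon lengths. Log2 CPM for correlations used a prior count of 2. The gene closest in pattern to *Ptges* is not reported here. Precision is limited by depth: without TMM 1 count was 0.0168 to 0.047 CPM in the 12 libraries and 29 CPM in control 24 h replicate 1. Bounds against 0 counts cover counting error only.
Chi-square values, divided by their degrees of freedom, were 2.66 to 11.9 between replicates, above sampling noise.
Members and lists were chosen with earlier results of these data known. Named list genes were those changed with genotype and, per group, up to 2 with the largest change over time in control cells, and others were named after their values were seen. DESeq2 1.42.0, which the authors used, was run as an alternative, beside RLE size factors, other filters, a replicate block, glmTreat, other choices of transcript and leaving out each library. Promoters are from RefSeq (GRCm38.p6).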

Additional observations from a re-analysis of the deposited data

Results flagged for a closer look

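In control 24 h replicate 1, the library of 34467 counts, the levels of 5 members stood apart from those of the other 3 controls at 24 h: *Ptges* at 22.4 CPM (1 count), *Ptger4* at 67.2 CPM (3 counts), and *Ptges2*, *Alox5ap* and *Lta4h* at 0.0 CPM (0 counts). The other 3 controls had 228 to 244 CPM of *Ptges* and 5.73 to 6.03 CPM of *Ptger4*. Chance alone puts about 1 in 20 such groups of 4 past the criterion used, a gap to the nearest library that is large for the range of the group. A count of 0 in that library allows up to 3 counts, or 67.2 CPM, so that the values at 0.0 are within counting error of the other controls for all 3 genes. Whether counting error also covers the values of *Ptges* (1 count) and *Ptger4* (3 counts) was not tested. The same library, which is outside the reported fit, held 10 *Ptgs2* counts.
The effect of genotype on *Ptger4* differed between 24 h and 3 h by -0.75 on the log2 scale in the test of the interaction. At 24 h its counts were 135 to 375 in control and 88 to 104 in AclyM-KO libraries, and the neighbour in role, *Ptger2*, had a difference of -0.1 (adjusted p = 0.781).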

How the results depend on the processing

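The count of members changed with genotype was 1 at each time under the other normalization, filters, tests, sample choices and transcript choices, except with glmTreat, which tests against the fold threshold itself and called 0 at 3 h and 0 at 24 h, and with the adjusted p alone, which called 2 and 3. Leaving out a library gave 0 to 1 at 3 h and 1 at 24 h. The member with an interaction of genotype and time was lost (0) in DESeq2 with all 13 libraries, and leaving out a library gave 1 to 2. The counts over time were 4 to 9 under the alternatives and, without single libraries, 5 to 6 in control and 6 in AclyM-KO cells. The cause was not tested.
Directions turned only for differences that did not pass the test. DESeq2 with all 13 libraries gave 0.133 for *Ptgs2* over time in control, 6.88e-05 for *Pla2g4a* at 24 h, and interactions of -0.329 for *Alox5* and 0.00959 for *Alox5ap*. Without the filter *Ptger2* at 24 h was at -0.00917. With a replicate block *Pla2g4a* and *Lta4h* at 24 h were at 0.019 and 0.022. Leaving out libraries gave -0.17 to 0.43 for the *Ptgs1* interaction, -0.21 to 0.017 and -0.017 to 0.091 for *Ptgs2* over time in control and AclyM-KO cells, -0.042 to 0.049 for *Pla2g4a*, -0.061 to 0.083 for *Ptger2*, -0.025 to 0.053 for *Alox5ap* and -0.06 to 0.00179 for *Lta4h* at 24 h, and -0.53 to 0.72 and -0.066 to 0.012 for the *Alox5* and *Alox5ap* interactions.
Same-numbered control and AclyM-KO replicates of the same time did not deviate together (correlations of -0.0065 to 0.0583), so between genotypes the numbers are taken as names. The 3 h and 24 h libraries of a genotype were not compared in this way. Whether they share a mouse or culture was therefore not tested, and the comparisons over time treat them as independent. The replicate block changed no call of a member by adjusted p and fold. By adjusted p alone it lost *Ptges2* at 24 h (adjusted p = 0.152) and added *Ptgs2* over time in control cells (adjusted p = 0.016). Replicate number 4 occurs only in control 24 h, so the block gives that library a term of its own. Control 24 h then rests on its other libraries, and the block's values do not show blocking alone. Without that library and without a block, the adjusted p was 0.125 for *Ptges2* at 24 h and 0.0247 for *Ptgs2* over time in control cells. The block left 228 genes changed at 3 h and 144 at 24 h, and 845 interactions, where 240, 165 and 1145 were found without it. Counts over all genes that differed by over 1.5 times were 35 and 4 with glmTreat and 48, 25 and 35 (interaction) in DESeq2 with all 13 libraries. In DESeq2 with all 13 libraries the median log2 fold change over time of all genes was 0.563 in control and 0.159 in AclyM-KO cells; there 2798 genes rose and 1403 fell in control, against 2500 and 2325. The interaction was not computed with the groups of 1 contrast alone, which leave it undefined. Depth limits the values of *Alox5* and, at 24 h, of *Ptgs1*.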
